A study of Mus musculus with 6 samples.

Results

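The genes described here are 47 genes of mitosis and chromosome segregation, a list of named genes that encode the kinases, cyclins, motors and structural proteins with which a cell divides its chromosomes. They were looked up by symbol, through the Ensembl identifiers of the deposited table, among its 20533 genes, and all 47 were found, all of them protein-coding. The choice used no measured value, but it was made with earlier results of these data known, so counts over the list are given beside the same counts over all genes and the list itself carries no test. The mice were wild-type males of the C57BL/6 strain, 7 weeks old, and RNA was taken from their distal colon on day 7. The 3 groups had received water, 2% dextran sulphate sodium (DSS), or 2% DSS plus montmorillonite powder, with 2 libraries in each. DSS is a sulphated polysaccharide that damages the lining of the large bowel and is a standard way to induce colitis in mice. Montmorillonite is a layered clay mineral given by mouth as an adsorbent in diarrhoea, and the sources used here do not give its dose. Whether each library stands for its own mouse was not stated in the labels, so p-values here reflect only how far these libraries differ from each other, which may be partly technical.

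A cell enters mitosis when cyclin-dependent kinase 1, bound to its A- and B-type cyclins, becomes active. Chromosomes are then condensed, attached to spindle microtubules through protein assemblies called kinetochores, and held under a checkpoint until the anaphase-promoting complex marks securin and cyclin B for destruction, after which the sister chromatids part and the cell is cleaved. Most of these genes are transcribed in the G2 phase and in mitosis and are silent in resting cells. In the colon they are read mainly in the dividing progenitors of the crypt base, and also in dividing immune cells such as germinal centre B cells. In RNA from whole tissue, fewer dividing cells and less of these transcripts per dividing cell cannot be told apart, and this holds for every result that follows.

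The deposited values were normalised read counts, each a whole number of reads divided by 1 factor per library, so that the reads could be recovered. The libraries held between 3741494 reads (water replicate 2) and 21481594 reads (DSS replicate 1), and 1 read was worth 0.335 to 2.27 units of normalised count. The 47 genes together had 19891 and 7391 reads with water, 48487 and 22422 with DSS, and 3295 and 2593 with DSS plus montmorillonite. As a share of each library this was 0.223% and 0.198% with water, 0.226% and 0.147% with DSS, and 0.0515% and 0.0577% with DSS plus montmorillonite. Within every library each of the 47 genes had a read, the fewest being 4 reads of Kif18b in DSS plus montmorillonite replicate 1. The general epithelial markers Epcam, Krt8, Cdh1 and Vil1 were present at normalised counts of 1859 or more in all 6 libraries. The DSS plus montmorillonite libraries stood apart from each other in their immune genes: the median of 10 neutrophil genes lay 2.04 above the water mean on the log2 scale in replicate 1 and 7.80 above it in replicate 2. For that reason results on this group are also given without each of its libraries.

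Many promoters of G2 and mitosis genes are known to carry a pair of elements, CCAAT boxes, bound by the factor NF-Y, and a cell cycle genes homology region (CHR), bound by the MuvB complex, which represses these genes in resting cells and with B-MYB and FOXM1 activates them in G2. Promoter sequences are shown first because their motifs are common to many of these genes, though not to all, and come from outside the measurements. Windows from 250 bases before to 50 bases after the transcription start (RefSeq, GRCm38.p6) were at hand for 39 of the 47 genes, as 41 windows of 300 bases. The motifs searched on both strands were CCAAT, the CHR forms TTTGAA and TTCGAA (the second reads the same on both strands) and, for E2F factors, TTTGGCGC and TTTCGCGC. The 4 genes with the most matches are printed 5′ to 3′ along the gene's strand, with CCAAT and CHR matches and the single E2F match of Cdk1 in capitals (ATTGG and TTCAAA are matches on the opposite strand). They are Top2a (chr11:99024140-99024439, minus strand), Ube2c (chr2:164769679-164769978, plus strand), Cdk1 (chr10:69352863-69353162, minus strand) and Hmmr (chr11:40733388-40733687, minus strand).
Top2a: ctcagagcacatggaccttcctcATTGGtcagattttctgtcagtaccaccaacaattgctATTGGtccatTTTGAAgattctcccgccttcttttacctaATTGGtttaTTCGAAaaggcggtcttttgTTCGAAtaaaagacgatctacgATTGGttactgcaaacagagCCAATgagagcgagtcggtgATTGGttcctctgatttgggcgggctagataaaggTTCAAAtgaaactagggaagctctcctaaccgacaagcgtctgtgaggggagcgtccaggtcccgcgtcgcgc
Ube2c: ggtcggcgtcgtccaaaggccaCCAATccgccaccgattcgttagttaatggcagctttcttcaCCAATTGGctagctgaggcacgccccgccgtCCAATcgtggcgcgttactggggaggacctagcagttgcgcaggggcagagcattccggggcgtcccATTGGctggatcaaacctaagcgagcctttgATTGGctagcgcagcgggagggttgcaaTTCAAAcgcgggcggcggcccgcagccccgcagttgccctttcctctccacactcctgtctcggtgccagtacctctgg
Cdk1: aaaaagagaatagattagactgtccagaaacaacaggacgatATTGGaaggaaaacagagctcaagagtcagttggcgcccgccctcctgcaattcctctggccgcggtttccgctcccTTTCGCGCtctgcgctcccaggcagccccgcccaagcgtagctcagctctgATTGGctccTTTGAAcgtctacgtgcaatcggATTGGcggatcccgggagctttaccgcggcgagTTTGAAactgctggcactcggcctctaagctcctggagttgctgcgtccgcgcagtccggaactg
Hmmr: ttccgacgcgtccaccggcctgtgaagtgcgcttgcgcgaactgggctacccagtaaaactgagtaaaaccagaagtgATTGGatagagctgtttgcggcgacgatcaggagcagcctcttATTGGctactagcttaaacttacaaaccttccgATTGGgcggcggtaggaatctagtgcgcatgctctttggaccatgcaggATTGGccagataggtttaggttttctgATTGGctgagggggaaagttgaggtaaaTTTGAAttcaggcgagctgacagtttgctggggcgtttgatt
The Top2a window held 6 CCAAT and 4 CHR matches, that of Ube2c 6 and 1 (in CCAATTGG a match on each strand overlaps the other), that of Cdk1 3 and 2, and that of Hmmr 5 and 1.

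Over all the windows of the mitosis genes, 32 of 41 (78.0%) held a CHR form, against 14.7% of the 17043 windows of genes tested here and 19.2% of all 32851 mouse windows. A CCAAT box stood in 31 of 41 (75.6%), against 36.8% and 37.4%. Both together stood in 28 of 41 (68.3%), against 5.83% and 7.52%. The E2F motifs were in 2 of 41 (4.88%), against 1.25% of the windows of genes tested. Matches were not spread evenly along the window. A CHR form within the first 25 bases after the start was found in 31.7% of the mitosis windows and 1.02% of those of all genes tested, and a CCAAT box within the last 25 bases before it in 31.7% and 4.29%. By comparison, in 27 windows of genes of DNA replication and S phase the CHR forms stood in 18.5%, CCAAT in 63.0% and the E2F motifs in 29.6%. A match is a string of letters in a window and not a measured binding site.

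**Figure D1:**
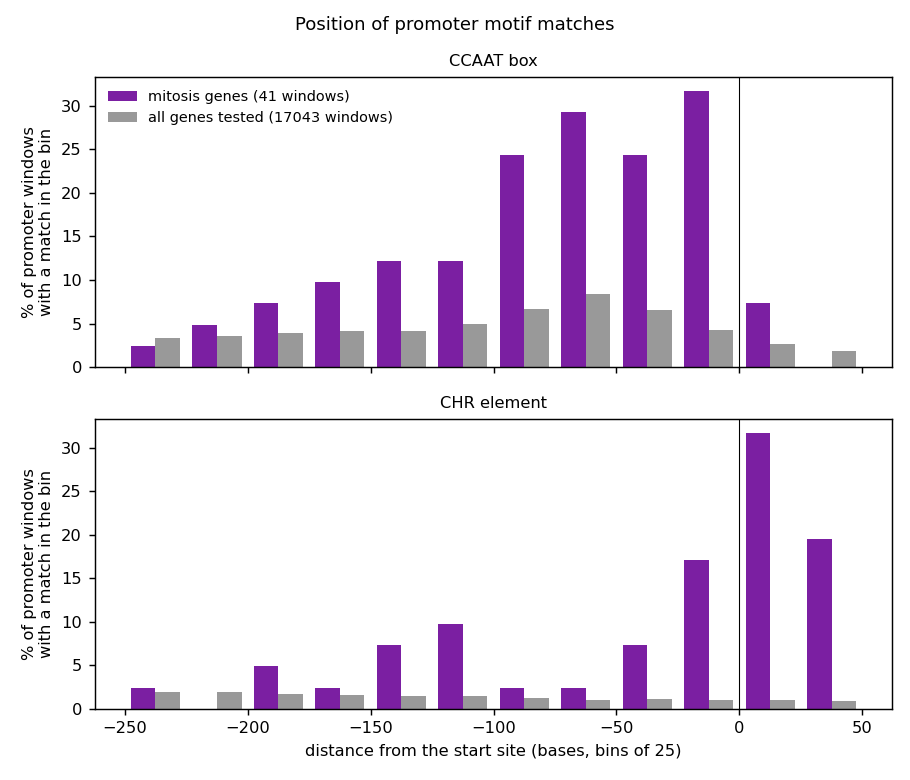
Share of promoter windows (%) with a CCAAT match (top) or a CHR match, TTTGAA or TTCGAA (bottom), by distance from the transcription start in bins of 25 bases, for the 41 windows of mitosis genes (purple) and the 17043 windows of genes tested (grey). CHR matches of the mitosis genes are most frequent in the first 25 bases after the start (31.7% against 1.02%), and CCAAT matches in the 100 bases before it.

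The first comparison, DSS plus montmorillonite against water, asks how colons given both agents differed from untreated ones. All but 1 of the mitosis genes, Pttg1, were lower in both DSS plus montmorillonite libraries than in both water libraries. Their summed normalised count was 19092 and 16809 with water and 4739 and 4711 with DSS plus montmorillonite. The median log2 fold change of the 47 genes was -2.03, against 0.06 for all genes tested, and ran from -3.37 (Kif18b) to -0.21 (Pttg1). In 46 of 47 genes both libraries lay below both water libraries, which held for 19.2% of all genes, and in none did both lie above them (21.5% of all). The log2 fold change was below -1 in 45 of 47 genes and below -2 in 26, against 7.47% and 1.68% of all genes.

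By the test set for these normalised values, limma on log2(normalised count + 1) over all 6 libraries with adjustment over 20307 genes, 0 of the 47 passed an adjusted p of 0.05 (smallest adjusted p = 0.268), as 0% of all genes did. At an unadjusted p under 0.05 by limma stood 46 of the 47, all lower (4.77% of all genes were lower at that p), and 2058 of all genes in either direction. EdgeR on the recovered reads also called 0. DESeq2 on the recovered reads called 42 of the 47 lower and none higher, where it called 0.955% of all genes lower and 0.734% higher. From the 4 libraries compared alone it called 38 lower (0.581% of all genes, with 0.445% higher). The limma fit without DSS plus montmorillonite replicate 1 called 25 of the 47 lower, with 1.66% of all genes lower and 3.29% higher. The limma fits without each of the other libraries called 0 of the 47. The library left in a group is then taken to vary as the others do. DESeq2 called 3 of the 47 (0.0295% of all genes lower) without water replicate 1, 9 (0.0837%) without water replicate 2, and 41 (4.43%) without DSS plus montmorillonite replicate 1. Without each of the other libraries the DESeq2 median of the 47 genes was -2.27 to -2.04. With 2 libraries on each side, the smallest p that an exact permutation test can give is 0.333.

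**Figure D2:**
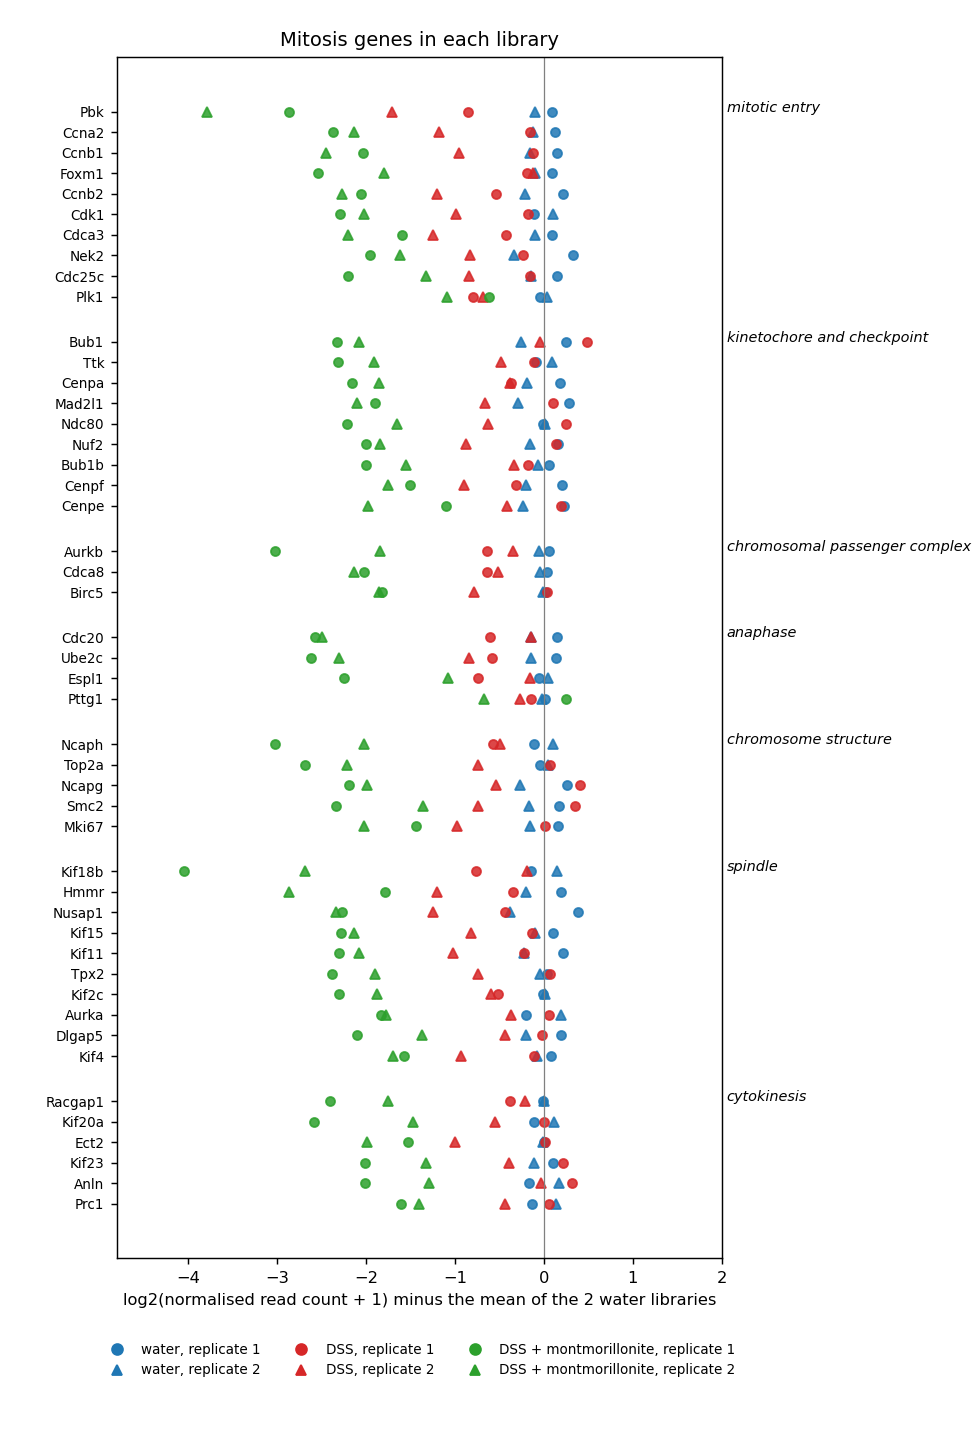
Each of the 47 mitosis genes in each of the 6 libraries, as the log2(normalised read count + 1) minus the mean of the 2 water libraries, ordered by role; circles are replicate 1 and triangles replicate 2. The DSS plus montmorillonite points (green) lie to the left of all others in 45 genes, and Plk1 and Pttg1 are the exceptions.

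In the paragraphs by role, folds and SE come from the limma fit, in which 0 of the 47 passed (smallest limma adjusted p = 0.268). The adjusted p-values beside them come from DESeq2, a different test. Mitotic entry is represented by 10 genes, 8 of which DESeq2 called lower in DSS plus montmorillonite than in water, with a median log2 fold change of -2.16. Ccna2 encodes cyclin A2, a partner of cyclin-dependent kinases in S phase and at the start of mitosis. Its normalised counts were 994 and 839 with water, 822 and 404 with DSS, and 175 and 207 with DSS plus montmorillonite. The last pair lay below the other 4 libraries, and the log2 fold change against water was -2.25 ± 0.36 (SE; DESeq2 adjusted p = 0.000121). Ccnb2, a B-type cyclin, had 482 and 357 with water, 286 and 179 with DSS, and 99.2 and 85.4 with DSS plus montmorillonite, 3 groups without overlap (-2.16 ± 0.32 against water, DESeq2 adjusted p = 7.02e-05). Pbk encodes a protein kinase active in mitosis. Its counts had the same order, with 308 and 271 with water, 159 and 87.7 with DSS, and 38.8 and 19.99 with DSS plus montmorillonite. At -3.33 ± 0.46 against water (DESeq2 adjusted p = 1.06e-06), it stood next to Kif18b at the low end of the list. The depth behind the low values was small: 27 and 11 reads, whose exact 95% counting intervals ran from 25.6 to 56.5 and from 9.98 to 35.8 in normalised counts. Such intervals cover counting error only.

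Plk1 (ENSMUSG00000030867.7, chromosome 7, 122159439 to 122169873 on the plus strand, GRCm38), polo-like kinase 1, which drives mitotic entry, spindle formation and cytokinesis, did not follow the rest. It had 473 and 500 with water, 281 and 303 with DSS, and 316 and 229 with DSS plus montmorillonite. Both treated groups lay below water, and they overlapped each other. The log2 fold change of DSS plus montmorillonite against water was -0.85 ± 0.24 (DESeq2 adjusted p = 0.133). The other member of this group that DESeq2 did not call, Cdc25c, the phosphatase that activates cyclin-dependent kinase 1, had a log2 fold change of -1.76 ± 0.49 (DESeq2 adjusted p = 0.0838) on 12 and 18 reads in DSS plus montmorillonite. Cdk1 itself had 409 and 473 with water, 390 and 221 with DSS, and 89.2 and 107 with DSS plus montmorillonite. Foxm1, which encodes the transcription factor that activates many of these genes, had 184 and 161 with water, 151 and 159 with DSS and 28.8 and 49.1 with DSS plus montmorillonite. For both genes the last group stood below all 4 other libraries.

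Of the 9 genes of the kinetochore and the spindle checkpoint, DESeq2 called 8 lower in DSS plus montmorillonite than in water, and their median log2 fold change was -1.93. Cenpa encodes the histone H3 variant that marks the centromere. It had 420 and 325 with water, 286 and 284 with DSS, and 82.0 and 102 with DSS plus montmorillonite (-2.01 ± 0.26 against water, DESeq2 adjusted p = 1.20e-06). Mad2l1 encodes MAD2, which holds back the anaphase-promoting complex while kinetochores are unattached. Its counts were 422 and 284 with water, 371 and 220 with DSS, and 92.1 and 79.9 with DSS plus montmorillonite (-2.0 ± 0.35, DESeq2 adjusted p = 0.00104). In Cenpa the 3 groups did not overlap, while in Mad2l1 the water and DSS libraries did and the last group stood below both. Bub1, a checkpoint kinase of the kinetochore, had 168 and 118 with water, 198 and 137 with DSS, and 27.3 and 32.7 with DSS plus montmorillonite (-2.20 ± 0.37, DESeq2 adjusted p = 0.000637). Cenpf, a large protein of the outer kinetochore, had 418 and 316, 292 and 195, and 128 and 107 in the same order of groups (-1.63 ± 0.31, DESeq2 adjusted p = 0.00390). Both DSS plus montmorillonite libraries were below all others in these genes too. The exception to the DESeq2 calls was Cenpe, a kinetochore motor, at -1.54 ± 0.39 (DESeq2 adjusted p = 0.0572).

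The chromosomal passenger complex, which corrects faulty attachments and later directs cytokinesis, is represented by Aurkb, its kinase, Birc5 (survivin) and Cdca8 (borealin). DESeq2 called all 3 lower. Birc5 had 334 and 330 with water, 341 and 192 with DSS, and 93.5 and 90.8 with DSS plus montmorillonite (-1.84 ± 0.32 against water, DESeq2 adjusted p = 0.00188). Cdca8 had 291 and 275, 181 and 198, and 69.0 and 63.6 (-2.08 ± 0.25, DESeq2 adjusted p = 2.58e-07). The Cdca8 values of the 3 groups were separate, whereas in Birc5 only the last group was separate from the other libraries.

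Anaphase is represented by 4 genes, and here the list parted. Cdc20, the activator that turns the anaphase-promoting complex on its mitotic substrates, had 468 and 382 with water, 278 and 384 with DSS, and 70.5 and 74.5 with DSS plus montmorillonite (-2.53 ± 0.27 against water, DESeq2 adjusted p = 7.82e-09). Ube2c, the ubiquitin-conjugating enzyme that works with that complex and whose promoter is printed above, had 610 and 500, 370 and 307, and 89.2 and 111 (-2.46 ± 0.25, DESeq2 adjusted p = 3.54e-10). They were 5.77-fold and 5.51-fold lower than in water, and below the DSS libraries too. Espl1, separase, which cuts the cohesin ring, had a log2 fold change of -1.66 ± 0.47 (DESeq2 adjusted p = 0.0951). Pttg1 (ENSMUSG00000020415.16, chromosome 11, 43420250 to 43426251 on the minus strand), securin, the inhibitor of separase, had 215 and 209 with water, 193 and 175 with DSS, and 253 and 133 with DSS plus montmorillonite. The last 2 values enclosed those of the other 4 libraries, and the log2 fold change was -0.21 ± 0.35 (DESeq2 adjusted p = 0.945), or 0.076 after centring each library on general epithelial genes. The Pttg1 window held no CCAAT, CHR or E2F match, which says only that these letters are not in that window, and that of Plk1 held 1 CCAAT and 1 CHR match. Other genes without a match of any of these motifs, among them Birc5, Mad2l1 and Nusap1, had log2 fold changes of -1.84, -2.0 and -2.30.

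Among the 5 genes of chromosome structure DESeq2 called all 5 lower. Top2a (ENSMUSG00000020914.17, chromosome 11, 98992943 to 99024189 on the minus strand), topoisomerase II alpha, which untangles sister chromatids, had 1462 and 1556 with water, 1580 and 903 with DSS, and 234 and 325 with DSS plus montmorillonite (-2.44 ± 0.32 against water, DESeq2 adjusted p = 1.03e-06). Mki67, the Ki-67 protein that coats mitotic chromosomes and is the usual proliferation marker, had 2523 and 2031, 2280 and 1155, and 836 and 556 (-1.73 ± 0.37, DESeq2 adjusted p = 0.0117). Ncapg, a condensin subunit, had 195 and 134, 214 and 111, and 34.5 and 40.0 (-2.09 ± 0.42, DESeq2 adjusted p = 0.00661). In these 3 genes both DSS plus montmorillonite libraries were the lowest of the 6.

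The spindle genes numbered 10, and DESeq2 called all 10 lower, with a median log2 fold change of -2.16. Kif11, the kinesin that pushes spindle poles apart, had 666 and 489 with water, 487 and 280 with DSS, and 115 and 134 with DSS plus montmorillonite (-2.19 ± 0.33 against water, DESeq2 adjusted p = 8.43e-05). Tpx2, which activates Aurora A on the spindle, had 489 and 462, 498 and 284, and 90.6 and 127 (-2.13 ± 0.34, DESeq2 adjusted p = 0.000188). Nusap1, a microtubule bundling protein, had 566 and 332, 321 and 182, and 89.2 and 85.4 (-2.30 ± 0.39, DESeq2 adjusted p = 0.000246). Kif11 and Nusap1 were ordered water, DSS, DSS plus montmorillonite without overlap, while Tpx2 in DSS replicate 1 was above both water libraries. Kif18b (ENSMUSG00000051378.10, chromosome 11, 102905529 to 102925124 on the minus strand), a kinesin that shortens astral microtubules, had 99.8 and 123 with water, 65.0 and 96.8 with DSS, and 5.75 and 16.4 with DSS plus montmorillonite. Its difference, -3.37 ± 0.56 (DESeq2 adjusted p = 9.79e-05), was the lowest of the list, but rested on 4 and 9 reads with exact 95% counting intervals of 1.57 to 14.7 and 7.48 to 31.0 in normalised counts, all below the water and DSS values.

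Cytokinesis was represented by 6 genes, all called lower by DESeq2, with a median log2 fold change of -1.71. Kif23, a motor of the central spindle, had 389 and 337 with water, 421 and 275 with DSS, and 89.2 and 144 with DSS plus montmorillonite (-1.67 ± 0.34 against water, DESeq2 adjusted p = 0.00931). Ect2, which activates RhoA at the cleavage furrow, had 394 and 391, 397 and 196, and 135 and 98.1 (-1.76 ± 0.38, DESeq2 adjusted p = 0.0154). Anln, the furrow scaffold anillin, had 267 and 337, 375 and 293, and 73.4 and 122 (-1.65 ± 0.33, DESeq2 adjusted p = 0.00661). Prc1, which bundles microtubules of the central spindle, had 274 and 330, 314 and 222, and 97.8 and 113, and at -1.51 ± 0.28 (DESeq2 adjusted p = 0.00468) had the smallest difference after Plk1 and Pttg1. Water and DSS libraries overlapped in these 4 genes, and both DSS plus montmorillonite libraries lay below them.

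**Figure D3:**
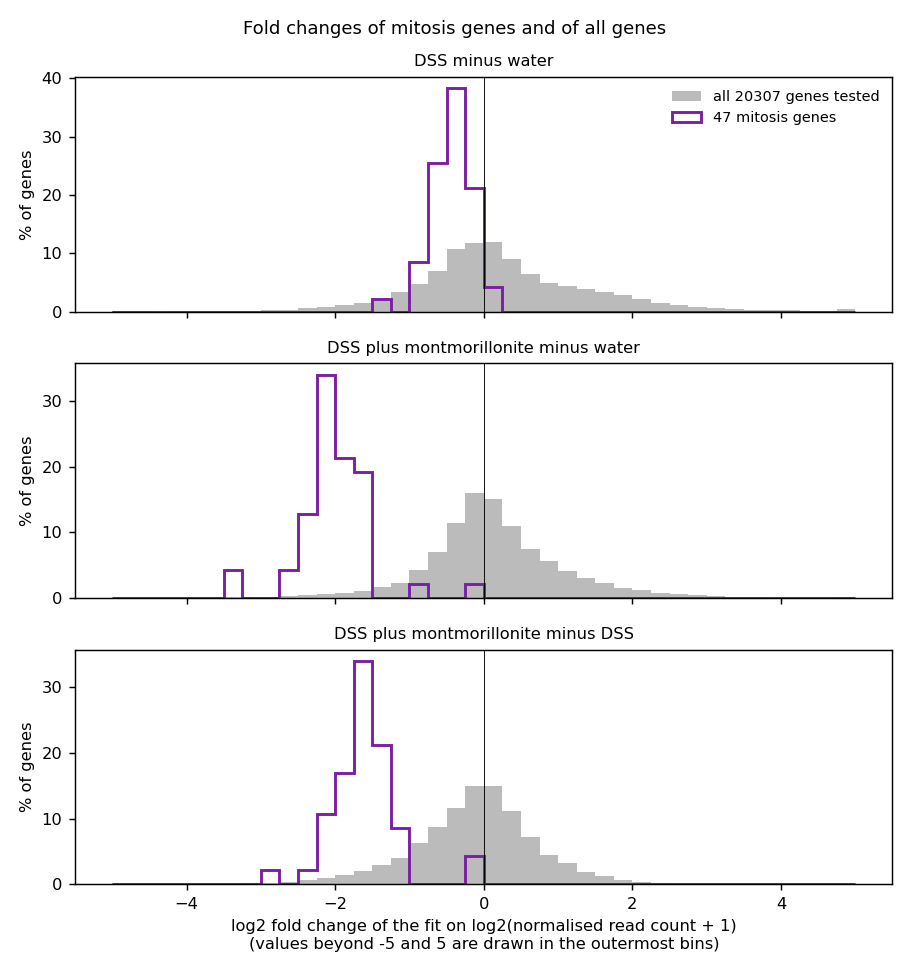
Distribution of log2 fold changes, on log2(normalised read count + 1), of the 47 mitosis genes (purple outline, % of 47) and of all 20307 genes tested (grey, % of all), for the 3 comparisons. The medians of the mitosis genes are -0.45, -2.03 and -1.58, and those of all genes 0.10, 0.06 and -0.07. Centring on general epithelial genes turns the mitosis median of DSS against water to 1.04 and that of all genes to 1.55.

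The second comparison, DSS plus montmorillonite against DSS, asks how colons given DSS differed with the clay added. The mitosis genes were lower with montmorillonite here as well. Their median log2 fold change was -1.58, against -0.07 for all genes, and ran from -2.89 (Kif18b) to -0.0043 (Pttg1). In 45 of the 47, all but Plk1 and Pttg1, both DSS plus montmorillonite libraries lay below both DSS libraries, which held for 20.6% of all genes, and none had both above (19.4% of all). The fold change of 7 genes lay below -2 against 2.49% of all. The 2 comparisons share the DSS plus montmorillonite libraries and are not independent of each other.

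Limma called 0 of the 47 in this comparison and 0% of all genes (smallest adjusted p = 0.266), with 45 of the 47, all lower (4.89% of all genes), and 2291 of all genes in either direction at an unadjusted p under 0.05, and edgeR called 0. DESeq2 called 35 lower and none higher, where it called 0.817% of all genes lower and 2.32% higher. Bub1, whose DSS values overlapped those with water, had a log2 fold change of -2.42 ± 0.37 (DESeq2 adjusted p = 5.40e-05). Cdc20 had -2.16 ± 0.27 (DESeq2 adjusted p = 1.03e-06) and Kif18b -2.89 ± 0.56 (DESeq2 adjusted p = 0.000877). Top2a was 4.31-fold lower (-2.11 ± 0.32, DESeq2 adjusted p = 2.23e-05) and Ube2c 3.37-fold lower (-1.75 ± 0.25, DESeq2 adjusted p = 2.73e-05). These genes belong to the checkpoint, anaphase, spindle and chromosome structure groups, whose median differences were -1.63, -1.48, -1.56 and -2.0.

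Mitotic entry and cytokinesis had medians of -1.43 and -1.67, and the chromosomal passenger complex -1.50. At the other end, Plk1 differed by -0.12 ± 0.24 (DESeq2 adjusted p = 0.918) and Pttg1 by -0.0043 ± 0.35 (DESeq2 adjusted p = 0.957), and the sign of each turned in some of the other settings. Cenpf came next at -1.02 ± 0.31 (DESeq2 adjusted p = 0.0982). Mki67, with -1.25 ± 0.37 (DESeq2 adjusted p = 0.0651), and Ect2, with -1.27 ± 0.38 (DESeq2 adjusted p = 0.0695), were also among the 12 that DESeq2 did not call. DESeq2 did not give every member an adjusted p without water replicate 1, water replicate 2 or DSS plus montmorillonite replicate 1. A member not called in those fits may not have been tested. Their DESeq2 medians of the 47 genes were -1.64, -1.64 and -1.57, against -1.64 with all 6 libraries. The DESeq2 calls depended on the libraries in the fit: 8 genes were called lower from the 4 libraries compared alone (0.0886% of all genes, with 0.241% higher), and 1 without water replicate 1 and again without water replicate 2 (0.00985% of all genes lower in each). It called 5 without DSS replicate 1 (0.118%), 15 without DSS replicate 2 (0.153%) and 15 without DSS plus montmorillonite replicate 1 (0.202%). Without DSS plus montmorillonite replicate 2 DESeq2 called 37 of the 47, with 7.61% of all genes lower, and limma 28, with 5.07% of all genes lower.

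The third comparison, DSS against water, asks how colons given DSS alone differed from untreated ones. Differences were small here and their sign depended on the scaling. The median log2 fold change of the 47 genes was -0.45 against 0.10 for all genes, and 45 of 47 were negative. Of all genes 44.9% were negative. With scaling by library size alone the median was -0.21 against 0.33, with 35 of 47 and 34.2% of all genes negative. With each library centred on the general epithelial genes it was 1.04 against 1.55, with 0 of 47 and 6.65% of all genes negative. In 26 of 47 genes both DSS libraries lay below both water libraries, as they did in 28.5% of all genes, and in none were both above, as they were in 33.9% of all genes. With the epithelial centring both were above in 46 of 47, as in 84% of all genes. Limma called 0 of the 47 and 0% of all genes (smallest adjusted p of the list = 0.163), with 4 of the 47 and 4662 of all genes at an unadjusted p under 0.05. EdgeR and DESeq2 called 0 of the 47, where DESeq2 called 5.39% of all genes lower and 6.22% higher. From the 4 libraries alone DESeq2 called 3 lower (9.28% of all genes, with 10.5% higher).

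With the deposited scaling, the members with the lowest values in DSS relative to water were Pbk (-1.28 ± 0.46, limma adjusted p = 0.176), Ccnb2 (-0.87 ± 0.32, limma adjusted p = 0.186) and Nusap1 (-0.84 ± 0.39, limma adjusted p = 0.249). Those at the other end were Bub1 (0.22 ± 0.37, limma adjusted p = 0.745), Anln (0.15 ± 0.33, limma adjusted p = 0.817) and Ncapg (-0.07 ± 0.42, limma adjusted p = 0.940). These limma p-values cannot be set against the DESeq2 p-values of single genes in the comparisons with montmorillonite. By their values in each library, listed above, Pbk, Ccnb2 and Nusap1 had DSS values below both water values, and the other 3 overlapped. Plk1, the exception in the montmorillonite comparisons, was 1.66-fold lower in DSS than in water (-0.74 ± 0.24, limma adjusted p = 0.163). In the limma fit of these 4 libraries alone Plk1 was the 1 member called (adjusted p = 0.0460), where 7.28% of all genes were called lower and 7.95% higher. By role the medians ran from -0.62 in mitotic entry to -0.23 in cytokinesis. The median rested more on DSS replicate 2: without that library it was -0.15, and without DSS replicate 1 it was -0.66.

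The spread inside the groups was as follows. DSS replicate 2 was below DSS replicate 1 in 38 of 47 genes, against 51.2% of all genes, by a median of 0.60 on the log2 scale. The median SD of a member's log2 value was 0.17 with water, 0.42 with DSS and 0.32 with DSS plus montmorillonite, against 0.21, 0.29 and 0.46 for all genes. The mitosis genes varied more than the median gene between the DSS libraries and less between the DSS plus montmorillonite libraries, which differ widely in other genes. Both DSS plus montmorillonite libraries lay below all 4 others in 45 of the 47 genes (7.51% of all genes), and above all 4 others in none (6.12% of all). The order water above DSS above DSS plus montmorillonite, without overlap, was found in 24 of the 47, against 1.87% of all genes.

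**Figure D4:**
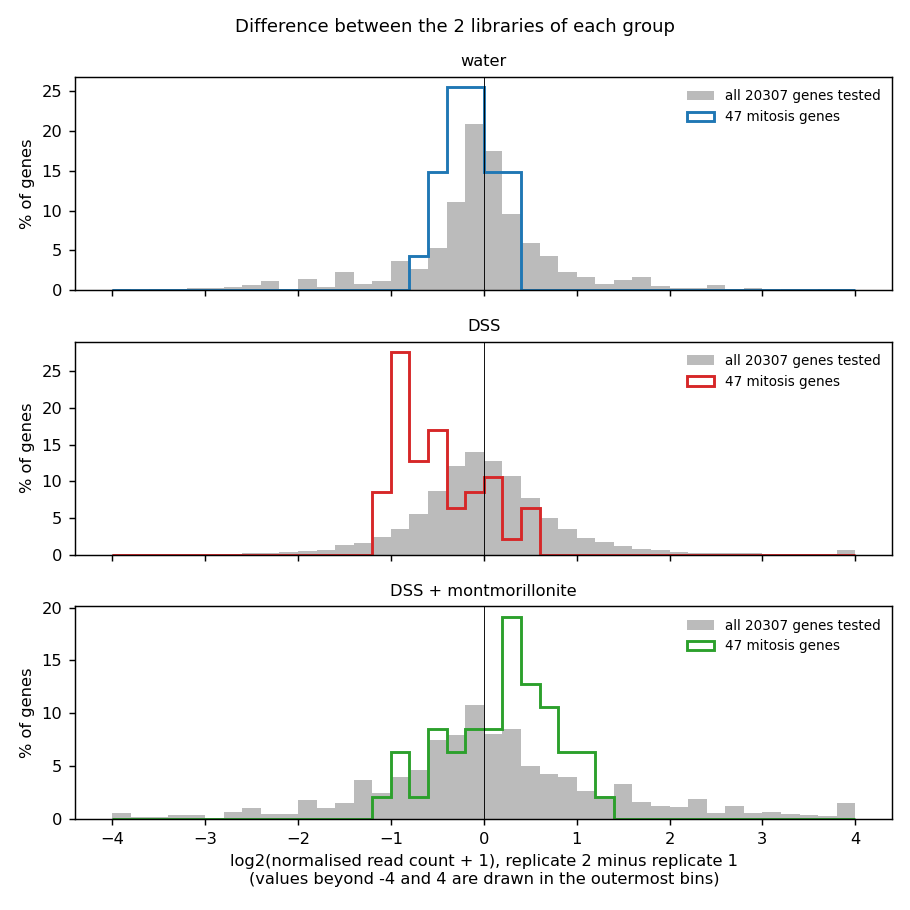
Difference between replicate 2 and replicate 1 in log2(normalised read count + 1), for the 47 mitosis genes (coloured outline) and all 20307 genes tested (grey), in each group, as % of genes. In DSS most mitosis genes lie left of 0 (38 of 47 lower in replicate 2), while in DSS plus montmorillonite their spread is narrower than that of all genes (median SD 0.32 against 0.46).

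Other cell cycle lists, written from textbook knowledge, are set beside the 47 genes, none of which they share. In DSS plus montmorillonite against water limma called none of their genes. Of all genes tested, 19.2% lay below both water libraries and 21.5% above, and DESeq2 called 0.955% lower and 0.734% higher. Of 34 other kinetochore and centromere genes 31 lay below both water libraries without overlap and 2 above (median log2 fold change -1.37), and DESeq2 called 12 lower. Spc24, a subunit of the Ndc80 complex, had 161 and 118 with water, 75.04 and 43.1 with DSS, and 21.6 and 19.99 with DSS plus montmorillonite. Of 29 other genes of the spindle, the centrosome and cytokinesis 24 lay below (median -1.68) and DESeq2 called 14 lower. Among them Ckap2l, a spindle protein, had 250 and 218 with water, 225 and 181 with DSS, and 48.9 and 49.1 with DSS plus montmorillonite. Of 20 other mitotic regulators 17 lay below (median -1.30) and DESeq2 called 6 lower, with Mastl, the kinase that restrains the phosphatase PP2A in mitosis, at 167 and 180, 136 and 70.0, and 41.7 and 34.5.

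The lists were not low across the board, and the shares of all genes just given apply to the counts against water here too. The 15 subunits and activators of the anaphase-promoting complex other than Cdc20, most of which are known to be made throughout the cell cycle, had a median of -0.19, with 6 of 15 below both water libraries and 0 called by DESeq2, limma or edgeR. Of 15 other cohesin and condensin genes (median -0.25) 9 lay below and DESeq2 called 3 lower: the cohesin acetyltransferase gene Esco2 and the condensin genes Ncapd2 and Ncapg2. Ncapd2 had 452 and 537 with water, 373 and 476 with DSS, and 145 and 184 with DSS plus montmorillonite. The 28 genes of DNA replication and S phase had a median of -1.44, with 25 of 28 below and 10 called lower by DESeq2, among them Tk1, thymidine kinase, with 297 and 371 with water, 310 and 263 with DSS, and 117 and 133 with DSS plus montmorillonite. G1 cyclins and their partners (16 genes, median -0.27) had 6 below and 2 above and 0 called by these tools. Of 16 cell cycle inhibitors and p53 targets (median -0.05) DESeq2 called Cdkn2c lower and none higher. Cdkn1a, which encodes the inhibitor p21, had 2664 and 2734 with water, 883 and 864 with DSS, and 1703 and 1973 with DSS plus montmorillonite. DESeq2 called it lower in DSS than in water and higher in DSS plus montmorillonite than in DSS (1.07 ± 0.19 by limma, DESeq2 adjusted p = 0.000234).

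Against DSS the same lists gave medians of -1.21 for the other kinetochore genes (30 of 34 below, 8 called lower by DESeq2), -1.39 for the other spindle genes (23 of 29, 10 called), -1.01 for the other regulators (15 of 20, 5 called) and -1.46 for S phase genes (28 of 28, 9 called). The anaphase-promoting complex had -0.28 (7 of 15, 0 called) and cohesin and condensin -0.40 (7 of 15, 4 called). Of all genes, 20.6% lay below both DSS libraries and 19.4% above, and DESeq2 called 0.817% lower and 2.32% higher. In DSS against water, with the deposited scaling, the medians of these 6 lists lay between -0.29 and 0.01. DESeq2 then called Stmn1, a microtubule-destabilising protein, lower (1039 and 1189 with water, 435 and 315 with DSS) and Zwint, a kinetochore protein, higher (345 and 330 against 624 and 646).

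Markers of cell types moved with the groups and are given beside these results. The 12 general epithelial genes had medians of -1.18 and -1.82 against the water mean (log2) in the DSS libraries and of 0.12 and -0.69 in the DSS plus montmorillonite libraries. None of them was at 0 in any library, and their summed counts were 192424 and 199458 with water, 81470 and 54084 with DSS, and 212993 and 115119 with DSS plus montmorillonite. The DSS libraries, lower in epithelial RNA, had mitosis medians of -0.15 and -0.66, and the DSS plus montmorillonite libraries, nearer water in epithelial RNA, had -2.20 and -1.89. Centring on these genes left the mitosis median of DSS plus montmorillonite against water at -1.75, against 0.33 for all genes. The part of epithelial content in the results was not tested, either for DSS or for DSS plus montmorillonite.

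Neutrophil and germinal centre B cell markers differed more between the DSS plus montmorillonite libraries than the mitosis genes did, whose medians were -2.20 and -1.89. The sum of the 10 neutrophil genes was 85.4 and 132 with water, 4781 and 15992 with DSS, and 285 and 10602 with DSS plus montmorillonite, with Retnlg, Mmp8 and Ngp at 0 in both water libraries. The 11 germinal centre B cell genes, of a cell type that divides quickly, had medians of 1.89 and 2.05 above water in DSS and of -0.06 and 1.29 with DSS plus montmorillonite. Their sums were 613 and 687 with water, 4255 and 2574 with DSS, and 660 and 1844 with DSS plus montmorillonite, with none at 0. In DSS against water 10 of these 11 were higher without overlap, as were 33.9% of all genes. Among them Cd79b, a B cell receptor subunit, had 71.0 and 95.5 with water, 730 and 345 with DSS, and 79.1 and 216 with DSS plus montmorillonite. The part of B cells in the mitosis counts was not tested. Of 11 crypt stem cell genes (medians -0.64 and -1.14 in DSS, -0.89 and -0.36 in DSS plus montmorillonite) DESeq2 called 3 lower in DSS plus montmorillonite than in water (0.955% of all genes), Lgr5, Ascl2 and Axin2. The summed counts of the 11 genes did not fall with these 3. They were 2204 and 2327 with water, 2377 and 3662 with DSS, and 1909 and 2411 with DSS plus montmorillonite. Lgr5, the receptor that marks crypt stem cells, had 63.3 and 43.2 with water, 4.02 and 2.88 with DSS, and 0 and 1.82 with DSS plus montmorillonite. The value of 1.82 is 1 read, at the floor of that library. Both treated groups were below water in this gene. Sox9, a transcription factor of the crypt, had 430 and 387 with water, 166 and 102 with DSS, and 751 and 124 with DSS plus montmorillonite, a gene chosen after its values were seen.

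**Figure D5:**
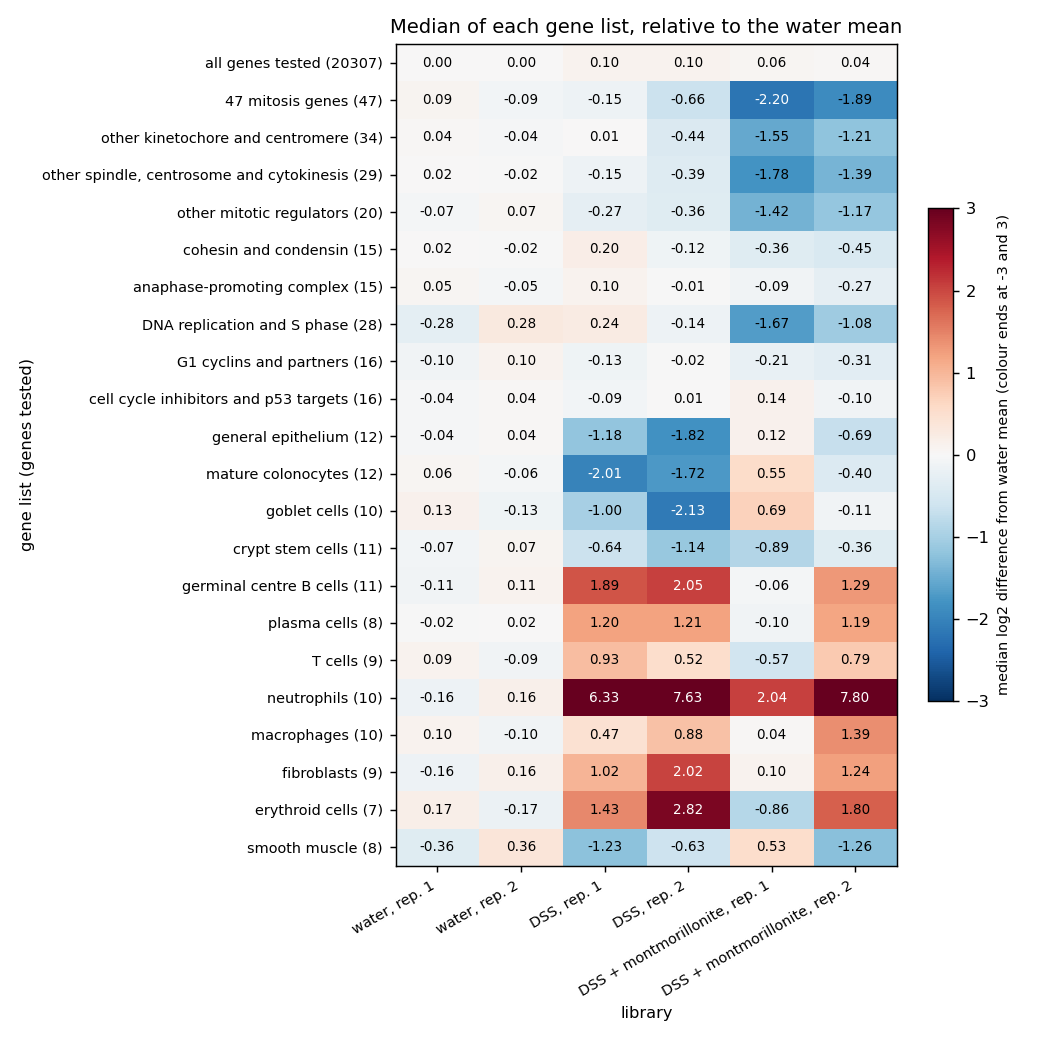
Median log2 difference from the water mean, on log2(normalised read count + 1), of each gene list (rows, with the number of genes tested) in each library (columns); the number in a cell is the median and the colour scale ends at -3 and 3. The mitosis genes stand at -2.20 and -1.89 in the DSS plus montmorillonite libraries, while the neutrophil genes of the same libraries stand at 2.04 and 7.80.

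Promoter motifs were set beside the fold changes. Mitosis genes with both a CHR and a CCAAT match had a median log2 fold change of -2.04 in DSS plus montmorillonite against water (26 genes) and the rest -1.93 (13 genes). Of 912 other genes with both motifs 10.7% were below -1, against 5.75% of 12494 genes without both, and the medians were -0.04 and 0.05. Genes are not replicates, and these shares are descriptions.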

How the data were processed

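RNA-seq was measured in 6 libraries, 3 groups of 2, with groups and replicate numbers taken from the sample titles. The authors deposited 1 table of normalised signal values for 20533 genes, all 6 columns of which were used. The reads were mapped to mm10 (GRCm38), per the submitters' processing notes; which aligner, counter and scaling produced the table is not given in the sources used here. Dividing a library by its value of 1 read gave whole reads, to within 0.01 read, for 100% of values. The smallest read sum of a gene was 10. Symbols and positions came from GENCODE M21, which held 20500 of the identifiers.

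Because the values were normalised, the test was limma (version 3.58.1 under R 4.3.3, trended variance) on the log2 of the value plus a pseudocount of 1. Genes whose mean value was under 1 were left out (226, leaving 20307). All 6 libraries entered 1 fit, two-sided, with Benjamini-Hochberg adjusted p below 0.05. Folds and their SE are on that scale, which understates changes of low values. The recovered reads were tested with edgeR (4.0.16) and DESeq2 (1.42.0), the latter adjusting over the genes its own filter kept. The other alternatives were a fit of 4 libraries, scaling by library size, centring on general epithelial genes, thinning to 3741494 reads, pseudocounts of 0.5 and 5, no filter or a mean of at least 10, leaving out each library, and a replicate block. DESeq2 on 4 libraries and with a library left out were added after the data were seen. The scripts were tested on simulated data.

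The members, the 20 lists (8 of pathways and 12 of cell types, written from textbook knowledge) and the rules were chosen with earlier results of these data known. Values in every library are given for the 2 genes of highest mean per role, the 3 of lowest and the 3 of highest fold change per comparison, and up to 2 genes of smallest p per list; other genes named, such as Cdk1, Foxm1, Sox9 and genes that DESeq2 did or did not call, were chosen after their values were seen. Promoter windows came from RefSeq (GRCm38.p6).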

Additional observations from a re-analysis of the deposited data

How the results depend on the processing

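The sign of the list's median held under every alternative run in both comparisons with DSS plus montmorillonite, and turned in DSS against water with centring on general epithelial genes. In DSS plus montmorillonite against water the members called, 0 by limma, numbered 42 by DESeq2, 38 by DESeq2 on the 4 libraries compared, 0 to 25 by limma with a library left out, and 3, 9, 38, 40, 41 and 37 by DESeq2 without water replicates 1 and 2, DSS replicates 1 and 2, and DSS plus montmorillonite replicates 1 and 2. Of all genes, DESeq2 called 0.581% lower without DSS replicate 1, 0.625% without DSS replicate 2 and 0.719% without DSS plus montmorillonite replicate 2. It called 0.478%, 0.532% and 0.177% higher in the same fits. Each of these fits left 1 library in a group. The list's median was -1.75 with the epithelial centring (0.33 for all genes). It was -2.27 by DESeq2 without DSS plus montmorillonite replicate 2, and -2.20 to -1.89 by limma with a library left out. Against DSS the members called numbered 35 by DESeq2, 8 by DESeq2 on 4 libraries, 0 to 28 by limma with a library left out, and, in the same order of libraries, 1, 1, 5, 15, 15 and 37 by DESeq2. In the DESeq2 fits without water replicate 1, water replicate 2 or DSS plus montmorillonite replicate 1, not every member had an adjusted p. The median was -2.79 with the epithelial centring (-1.24 for all genes), -1.88 by DESeq2 without DSS replicate 2, and -1.88 to -1.31 by limma with a library left out. In DSS against water 1 member was called in the fit of 4 libraries, 3 by DESeq2 on them, 3 (higher, as were 38.7% of all genes) with the epithelial centring, 0 to 1 by limma with a library left out, and 2 by DESeq2 without DSS plus montmorillonite replicate 1 (8.64% of all genes lower) or replicate 2 (8.88%). The median was 1.04 with the epithelial centring (1.55 for all genes), -0.16 by DESeq2 without DSS replicate 2, and -0.66 to -0.15 by limma with a library left out. The members without overlap there, 26 and all lower, numbered 10 with scaling by library size (9 lower and 1 higher, against 19.7% and 44.8% of all genes) and 46, all higher, with the epithelial centring (84% of all genes). With a library left out they numbered 26 to 44. This includes 1 higher without water replicate 1 (44.5% of all genes were higher) and 1 without water replicate 2 (43.2%). It also includes 10 higher of 37 without DSS replicate 2 (42.9%). Without a water or DSS library, 36.1% to 38.5% of all genes were lower without overlap. The epithelial centring takes the same log2 shift from every gene of a library, before the pseudocount is added. That shift was -1.18 and -1.82 in the DSS libraries, so the DSS values of all genes rose together. The cause of the other shifts was not tested.

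Signs of single genes turned as follows. In DSS against water the epithelial centring gave Ccnb2 0.63, Ncapg 1.43, Nusap1 0.65 and Pbk 0.21, and Ncapg was 0.015 and 0.0095 by edgeR on 6 and 4 libraries and 0.17 with scaling by library size. With a library left out Anln ran from -0.031 to 0.32, Bub1 from -0.040 to 0.48 and Ncapg from -0.54 to 0.40. In DSS plus montmorillonite against water Pttg1 was 0.076 with the epithelial centring and -0.67 to 0.25 with a library left out. Against DSS, Pttg1 was 0.015 by edgeR on 6 and on 4 libraries, 0.073 by DESeq2 and -0.47 to 0.46 with a library left out, where Plk1 ran from -0.35 to 0.12.

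With the replicate number as a block limma called 0 members in each comparison. No label says that the numbers pair samples, and same-numbered deviations correlated across genes at 0.089, 0.078 and 0.30 in the 3 pairs of groups. The block moved the calls over all genes in DSS against water from 0 to 326 higher and 352 lower. Depth limits the low members: Kif18b had 4 reads in 1 library.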

Other observations

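E2f7, an atypical E2F that represses genes of the cell cycle, had normalised counts of 33.6 and 40.9 with water, 45.6 and 79.6 with DSS, and 2.88 and 10.9 with DSS plus montmorillonite. Of 16 genes in the G1 list DESeq2 called 1, E2f7, in DSS plus montmorillonite against DSS, with 0.817% of all genes called lower (limma log2 fold change -3.17 ± 0.68 SE, limma adjusted p = 0.279, DESeq2 adjusted p = 0.00529). Its 2.88 in replicate 1 is 2 reads. In the same list Ccnd2, cyclin D2, had 3011 and 3511 with water, 1505 and 1099.7 with DSS, and 2245 and 868 with DSS plus montmorillonite.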
